A study of Mus musculus with 13 samples.

Results

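The genes described here are the mouse histone genes whose symbols start with Hist1h, Hist2h, Hist3h or Hist4h, the names of the clustered histone genes in the annotation used for these libraries. They were chosen by symbol alone, and 70 of the 43629 genes in the table carry such a name. By class they are 6 linker histone H1 genes, 20 H2A genes, 19 H2B genes, 12 H3 genes and 13 H4 genes. By cluster, 56 are Hist1 genes on chromosome 13, 10 are Hist2 genes on chromosome 3, 3 are Hist3 genes on chromosome 11 and 1 is the Hist4 gene. The annotation calls 68 of them protein coding and 2 pseudogenes.

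Messenger RNA was sequenced from 5 thymic lymphomas of Atm-/- mice (129S6/SvEv), 5 thymic lymphomas of Rag2c/c p53-/- mice (mixed C57BL/6 and 129S6/SvEv) and 3 thymuses of WT mice (C57BL/6). Atm encodes the kinase that signals DNA double-strand breaks, Trp53 encodes p53, and Rag2c/c mice express a RAG2 protein without its C-terminal part. The WT libraries were re-used from an earlier series, and the strain goes with the group, so genotype, tumour, strain and series cannot be told apart. No dose or treatment was given, ages are not given in the labels, and RNA came from whole suspensions of thymus or tumour cells, in which fewer cells of a type and less RNA per cell cannot be told apart.

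Core histones H2A, H2B, H3 and H4 form the protein spool of the nucleosome, and H1 binds the linker DNA. Most genes of these clusters are replication dependent: they have no introns, are transcribed in S phase, and their mRNAs end in a stem-loop that is bound by SLBP in place of a poly(A) tail. A minority are also made as polyadenylated mRNAs outside S phase, which is why a library selected on poly(A) sees only a fraction of histone transcripts. Most variant histones, such as H2A.Z and H3.3, are coded elsewhere in the genome by ordinary polyadenylated genes.

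Selection on poly(A) acts at the 3′ end, so the stem-loops of members with different behaviour are shown first. A match to the histone stem-loop consensus was found in transcripts of 46 of the 70 genes (GENCODE vM21, GRCm38), and in 40 further genes of the annotation, 0.155% of its 55450 genes in all. The 16 bases are written as DNA, 5′ to 3′, with the loop of 4 bases in capitals.
Hist3h2a: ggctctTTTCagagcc
Hist1h4i: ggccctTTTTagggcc
Hist1h4d: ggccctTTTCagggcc
Hist1h4b: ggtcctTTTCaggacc
Hist1h2bk: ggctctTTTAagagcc
Hist1h3g: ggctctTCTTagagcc
The form of Hist3h2a was found in 26 genes of the H1, H2A, H2B and H3 classes and in no H4 gene, whereas the form of Hist1h4d was found in 7 genes, which were H4 genes in each case. The form of Hist1h4i was shared with 1 other gene, Hist2h4. The stem-loop of Hist3h2a lies on the plus strand at chr11:58955172-58955187, and that of Hist1h4i on the minus strand at chr13:22040966-22040981, both within the exon. The counted gene ran 1643 bases past the stem-loop in Hist3h2a, 840 bases in Hist1h1c, 330 bases in Hist1h4i and 169 bases in Hist3h2ba, but 25 bases in Hist1h4d, 28 bases in Hist1h4b and 30 bases in Hist1h2bk. In all, 14 genes ran at least 100 bases past the stem-loop, and 11 of these had AATAAA or ATTAAA in the last 60 bases of a transcript. By comparison, 29 genes ended 2 to 63 bases after the stem-loop, and 3 of the 29 had such a signal. A further 3 genes stopped before the stem-loop, and in 24 no match was found, which says only that these letters were not in the annotated transcripts.

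Many of these genes are near copies of each other. Over the 70 genes, the median share of windows of 90 bases that also occur in another annotated gene was 35.9%, the share was over 50% in 30 genes, and it was 100% in 4 genes (Hist2h2aa1, Hist2h2aa2, Hist2h3b and Hist2h3c1). Since only uniquely mapped reads were counted, the values of such genes are uncertain. Values listed at 0 in all 13 libraries were found for 3 genes, Hist1h2ba, Hist2h2aa2 and Hist2h3c1.

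The libraries held an estimated 6.4 to 39.6 Mreads (megareads of counted reads), from a fit to the frequencies of low values. By this rough estimate WT replicate 2 (6.7 Mreads) and Rag2c/c p53-/- replicate 2 (6.4 Mreads) were the shallowest. Total normalized counts were 19788898 to 21591289. The Atm gene had 1990, 1559 and 2274 normalized counts in WT thymuses and 208 to 732 in Atm-/- lymphomas. Trp53 had 2018 to 5461 in Rag2c/c p53-/- lymphomas against 4387 to 6341 in WT, a range that overlaps, so that its transcript level is no check of the p53-/- label, and Rag2 transcripts were 46 to 1025 in the lymphomas against 4199 to 5409 in WT. The labelled cell type was checked with 10 thymocyte genes, whose summed level was 146692 to 234008 in WT, 101096 to 148390 in Atm-/- lymphomas and 122442 to 176367 in Rag2c/c p53-/- lymphomas, with none of them at 0. Of the 10, 3 (Cd8a, Cd8b1 and Themis) were called lower than WT in Atm-/- lymphomas, 30% against 17% of all genes. In Rag2c/c p53-/- lymphomas Themis was, 10% against 13.9%. Cd8b1 was called lower in Atm-/- than in Rag2c/c p53-/- lymphomas, 10% against 4.33%. All 6 fibroblast genes were present, and their summed level was 204 to 218 in WT, 3783 to 18172 in Atm-/- lymphomas and 642 to 2336 in Rag2c/c p53-/- lymphomas. The 6 myeloid genes were at 3645 to 3900, 5956 to 9716 and 3569 to 7333 in that order. In Atm-/- lymphomas 3 of them were called higher and 2 lower than WT (50% and 33.3%, against 12.6% and 17%). In Rag2c/c p53-/- lymphomas 1 was higher and 2 were lower (16.7% and 33.3%, against 9.77% and 13.9%). The 6 B cell genes were at 1498 to 1912, 274 to 345 and 166 to 557 in the same order, and the 6 thymic epithelium genes at 725 to 1058, 189 to 609 and 287 to 1320. The last range held Epcam, at 22 to 875 against 221 to 283 in WT. In Rag2c/c p53-/- lymphomas 4 of the 6 (Foxn1, Krt5, Krt8 and Psmb11) were called lower than WT, 66.7% against 13.9% of all genes. In Atm-/- lymphomas 3 were (Foxn1, Krt8 and Psmb11), 50% against 17%, and the list medians were -2.76 and -2.07 in this order. Psmb11, a proteasome subunit of cortical epithelium, was at 91, 36 and 122 in WT and at 0 in all lymphomas but Rag2c/c p53-/- replicate 4, where it was at 1. The part of these cells in the histone values was not tested.

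The clustered histone genes took 0.0122% to 0.0452% of the normalized counts of a library. Their summed level was 5012, 3759 and 4360 in the 3 WT thymuses, 2444, 3331, 5176, 6191 and 3940 in the 5 Atm-/- lymphomas and 4161, 9714, 4441, 3220 and 5374 in the 5 Rag2c/c p53-/- lymphomas, in replicate order. The groups overlapped, with means of 4377 ± 627 (SD, n = 3), 4216 ± 1485 (SD, n = 5) and 5382 ± 2541 (SD, n = 5). The highest sum came from the shallowest library, Rag2c/c p53-/- replicate 2.

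In WT thymus, 7 genes had a mean of at least 100 normalized counts: Hist1h1c (linker histone H1.2), Hist1h2bc, Hist1h2bg, Hist1h4i, Hist2h2be, Hist3h2a and Hist3h2ba. They made up 68.0%, 67.9% and 64.3% of the histone sum in the 3 WT thymuses. In Atm-/- lymphomas they made up 25.8%, 45.8%, 22.4%, 16.3% and 28.8%, and in Rag2c/c p53-/- lymphomas 41.2%, 37.4%, 54.6%, 49.3% and 44.8%, so that no lymphoma reached the WT range. Because a high level in WT chose the 7 genes, at a minimum set after the values were seen, a smaller share elsewhere is in part built into the choice, and this is a description with no test. The lowest WT mean among the 7 was 181.3 and the next highest of all other members was 70.3.

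The other 63 genes summed to 1606, 1206 and 1555 in WT, 1814, 1805, 4016, 5185 and 2807 in Atm-/- lymphomas and 2446, 6079, 2015, 1632 and 2966 in Rag2c/c p53-/- lymphomas. All 10 lymphomas were above all 3 thymuses, by a narrow margin in Rag2c/c p53-/- replicate 4. These genes were set apart by their lower level in WT, so this too is a description.

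**Figure D1:**
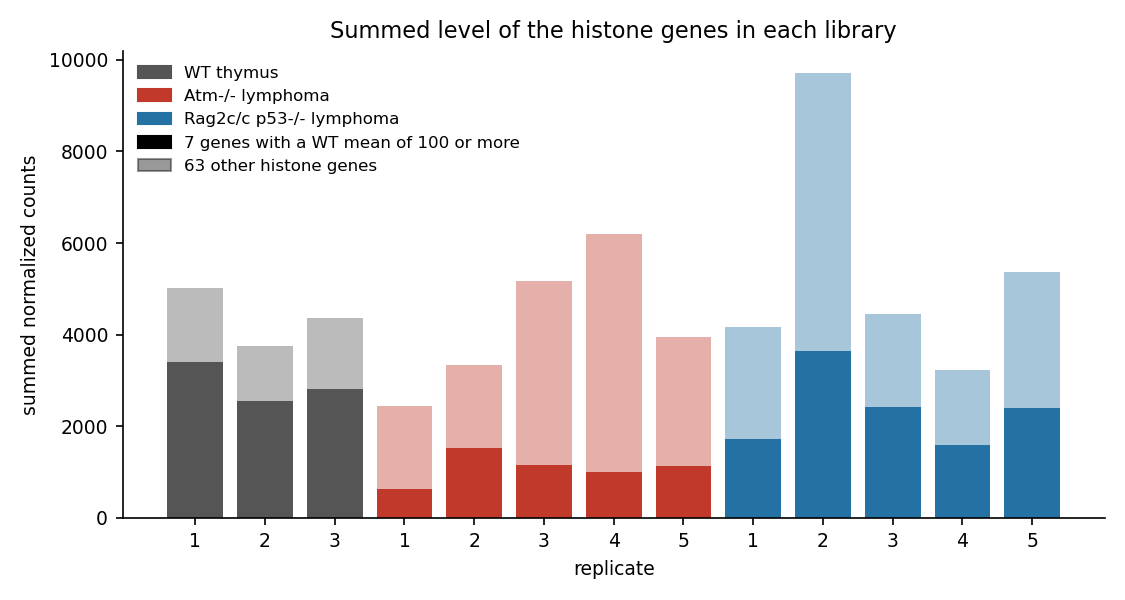
Summed normalized counts of the 70 clustered histone genes in each of the 13 libraries (y axis), in replicate order within each group (x axis), with the 7 genes of WT mean 100 or more as the dark part of each bar and the 63 others as the light part. The dark part is 64.3% to 68.0% of each WT bar, and 16.3% to 54.6% of each lymphoma bar.

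Per kilobase of transcript, Hist3h2ba was the highest of the 70 genes in WT thymus at 1040 normalized counts per kb, followed by Hist1h2bg at 455, Hist1h1c at 406, Hist1h4i at 339 and Hist2h2be at 254. In Atm-/- lymphomas the highest level per kb was that of Hist1h4d at 473, with Hist1h2af second at 424, and Hist3h2ba was in place 8 at 208. In Rag2c/c p53-/- lymphomas Hist1h4i was highest at 839 per kb, followed by Hist3h2ba at 645 and Hist1h4d at 447. Neighbours in these orders were not tested against each other. On the same scale, the variant histone genes H2afx, H2afz and H3f3b lay above all of them in WT, at 2963, 2578 and 4167 per kb.

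Differences between groups were tested for the 60 members with at least 10 normalized counts in at least 3 libraries, within a fit of all 15872 such genes. Values are log2 differences on the log2(value + 1) scale with their standard error, from limma with Benjamini-Hochberg adjustment over all tested genes. Calls were limited to adjusted p-values under 0.05 with a log2 difference of 1 or more in either direction, and to genes whose mean reached 10 in either group. Both comparisons with WT thymus use the same 3 thymuses.

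Atm-/- lymphomas differed from WT thymus in 18 of the 60 histone genes, 30% against 29.5% of all tested genes. The split by direction was uneven: 13 were higher (21.7% against 12.6% of all genes) and 5 were lower (8.33% against 17% of all genes). The median difference was 0.89 over the 60 members and -0.02 over all tested genes. Of the 60 members, 45 lay above 0. The calls changed with the libraries kept, being 10, 9 and 10 without WT replicates 1, 2 and 3, and 26 without Atm-/- replicate 2. The 13 higher calls became 7, 4 and 7 without those thymuses, 20 without Atm-/- replicate 2 and 8 without Atm-/- replicate 4, and the 5 lower calls became 3 without WT replicate 1 or 3. The median was 0.68 to 1.08 over the same omissions. The share of all genes called in these fits is not given here, so the changes are not shown to be particular to the histone genes.

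Rag2c/c p53-/- lymphomas differed from WT thymus in 9 of the 60 genes, 15% against 23.6% of all tested genes. Here 7 were higher (11.7% against 9.77% of all genes) and 2 were lower (3.33% against 13.9% of all genes). The median difference was 0.77 over the members and -0.02 over all genes, and 48 of the 60 members lay above 0. These calls were fewer without most libraries: 2, 3 and 4 without WT replicates 1, 2 and 3, 5, 4 and 3 without Rag2c/c p53-/- replicates 1, 2 and 5, and 5 without Atm-/- replicate 5, which enters the shared spread. The higher calls were 2, 1 and 3 without the thymuses, 3, 1 and 2 without those lymphomas, and 4 and 3 without Atm-/- replicates 1 and 5. The lower calls were 0, 1 and 1, in this order, without WT replicates 1 and 3 and Rag2c/c p53-/- replicate 5. Without both shallowest libraries, none of the members was called higher and 3 were called lower, and the median was 0.36. Here too the share of all genes called in the same fits is not given.

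By class, the median difference from WT in Atm-/- lymphomas was 1.33 over 5 H1 genes, 0.72 over 16 H2A genes, 0.01 over 15 H2B genes, 1.08 over 11 H3 genes and 0.93 over 13 H4 genes. In Rag2c/c p53-/- lymphomas the same medians were 0.11, 1.09, 0.43, 0.87 and 1.13. In Atm-/- lymphomas, 3 of the 15 H2B genes were called lower (20% against 17% of all genes), and 5 of the 16 H2A genes were called higher (31.2% against 12.6% of all genes). Differences between classes were not tested.

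**Figure D2:**
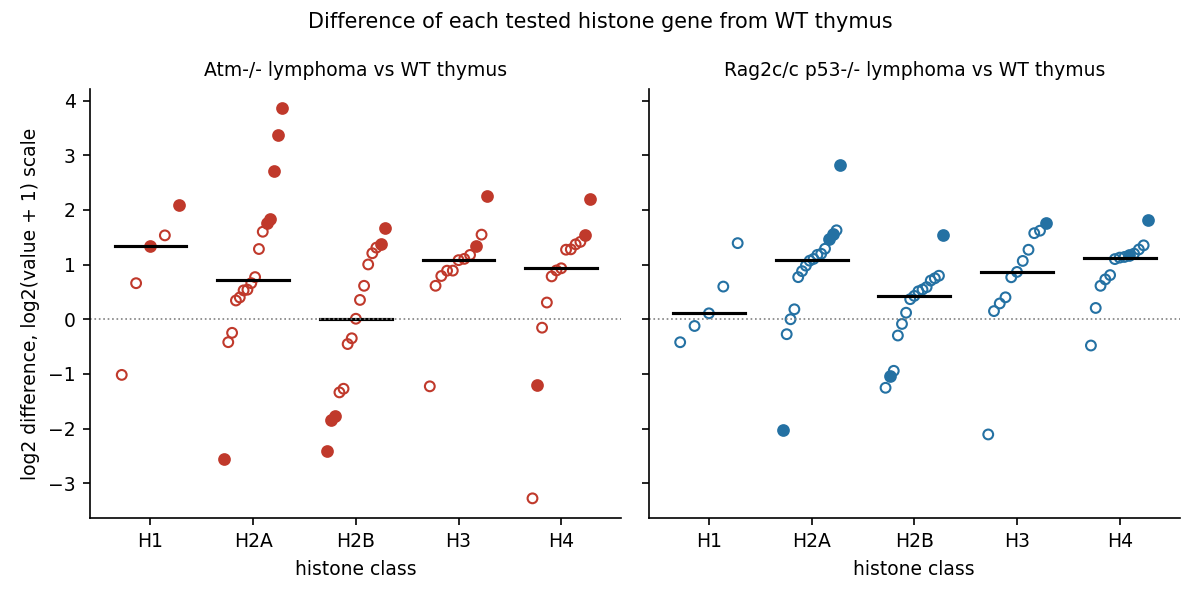
Log2 difference of each of the 60 tested histone genes from WT thymus (y axis) by histone class (x axis), in Atm-/- lymphomas on the left and Rag2c/c p53-/- lymphomas on the right, with called genes filled and class medians as bars. In Atm-/- lymphomas the H2B median lies at 0.01 and those of the other classes at 0.72 to 1.33, and the topmost H2A point is Hist1h2al, whose WT values are all listed at 0.

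By the end of the counted gene, the 26 tested members that ended at the stem-loop had a median difference from WT of 0.83 in Atm-/- lymphomas and 0.84 in Rag2c/c p53-/- lymphomas. The 13 that ran at least 100 bases past it had medians of 0.35 and 0.37, and the 18 with no match 1.30 and 1.15. In normalized counts per kb, the median level of the 26 was 70.7 in WT, 139.6 in Atm-/- lymphomas and 102 in Rag2c/c p53-/- lymphomas. That of the 13 was lower, at 17.7, 36.0 and 31.8 in the same order, and the reason was not tested. Of the 5 genes lower in Atm-/- lymphomas, 3 (Hist3h2a, Hist3h2ba and Hist1h4i) ran past the stem-loop, 1 (Hist2h2be) was a gene of 2620 bases with no match, and 1 (Hist1h2bm) stopped before it. The 3 were 23.1% of the 13, against 17% of all genes. In Rag2c/c p53-/- lymphomas 1 of the 13 was higher and 1 lower (7.69% each, against 9.77% and 13.9%). Of the 18 with no match, 8 were higher and 1 lower in Atm-/- lymphomas (44.4% and 5.56%, against 12.6% and 17%). In Rag2c/c p53-/- lymphomas 2 were higher and 1 lower (11.1% and 5.56%, against 9.77% and 13.9%). These sets were not tested against each other. None of the 26 that ended at the stem-loop was called lower in either comparison with WT, where 17% and 13.9% of all tested genes were, while 4 and 3 were called higher (15.4% and 11.5%, against 12.6% and 9.77% of all genes). Among the 26, Hist1h4m was at 0 in all 5 Atm-/- lymphomas (limma adjusted p = 0.000258), without a call only because its WT mean was 9. Hist1h2bg, also among them, was lower in both comparisons without passing, at -1.27 and -1.25.

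Both tested genes of the Hist3 cluster were lower in Atm-/- lymphomas. Hist3h2a (ENSMUSG00000078851, chromosome 11 from 58954685 to 58956830), an H2A gene, had 439, 247 and 335 normalized counts in WT, 24, 224, 47, 47 and 44 in Atm-/- lymphomas and 107, 74, 128, 40 and 82 in Rag2c/c p53-/- lymphomas. All 10 lymphomas were below the lowest thymus, with Atm-/- replicate 2 closest to it. It shared 30.1% of its windows with other genes, among them Trim17, which overlaps it. Hist3h2a fell by 2.55 on the log2 scale (SE 0.59, limma adjusted p = 0.00356) in Atm-/- lymphomas and by 2.03 (SE 0.59, limma adjusted p = 0.0158) in Rag2c/c p53-/- lymphomas. The call in Rag2c/c p53-/- lymphomas was lost without WT replicate 1 or 3 (limma adjusted p = 0.0751 and 0.0562).

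Hist3h2ba (ENSMUSG00000056895, chromosome 11 from 58948920 to 58949533) is the H2B gene beside it. It had 715, 624 and 576 normalized counts in WT, 68, 187, 93, 113 and 177 in Atm-/- lymphomas and 253, 946, 244, 196 and 342 in Rag2c/c p53-/- lymphomas. The Atm-/- values lay apart from WT, whereas Rag2c/c p53-/- replicate 2 was above all thymuses and its 4 companions below them. Hist3h2ba fell by 2.41 on the log2 scale (SE 0.46, limma adjusted p = 0.0011) in Atm-/- lymphomas. In Rag2c/c p53-/- lymphomas the difference of -0.94 (SE 0.46, limma adjusted p = 0.123) did not pass, and it passed without replicate 2, at -1.32 (limma adjusted p = 0.0102).

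Hist2h2be (ENSMUSG00000068854, chromosome 3 from 96221119 to 96223738) codes for an H2B protein and shared none of its windows of 90 bases with another gene. Its normalized counts were 765, 581 and 648 in WT, 145, 222, 171, 120 and 305 in Atm-/- lymphomas and 449, 328, 292, 313 and 247 in Rag2c/c p53-/- lymphomas. Every lymphoma was below every thymus. Hist2h2be fell by 1.85 (SE 0.29, limma adjusted p = 0.000291) in Atm-/- lymphomas, a call that held in all 22 alternatives tried. In Rag2c/c p53-/- lymphomas it fell by 1.05 (SE 0.29, limma adjusted p = 0.0137), and the call was lost without WT replicate 1 or Rag2c/c p53-/- replicate 5, at -0.94 and -0.95.

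The remaining abundant genes did not pass in the comparisons named. Hist1h1c, which codes for H1.2, had 742, 539 and 618 in WT, 183, 420, 402, 350 and 262 in Atm-/- lymphomas and 259, 490, 947, 290 and 648 in Rag2c/c p53-/- lymphomas. The Atm-/- values were all below the thymuses and the Rag2c/c p53-/- values spanned them, and the differences were -1.02 (SE 0.40, limma adjusted p = 0.0513) and -0.42 (SE 0.40, limma adjusted p = 0.426). The former passed in 8 of 22 alternatives, both other scalings of the libraries among them. Hist1h2bg had 242, 205 and 204 in WT against 51, 32, 189, 124 and 144 in Atm-/- lymphomas and 85, 91, 130, 46 and 128 in Rag2c/c p53-/- lymphomas. No lymphoma reached the thymuses for Hist1h2bg, yet the differences of -1.27 (limma adjusted p = 0.0669) and -1.25 (limma adjusted p = 0.0792) did not pass. Hist1h2bc overlapped between all groups, at 234, 143 and 167 in WT, 88, 299, 129, 145 and 106 in Atm-/- lymphomas and 180, 551, 324, 221 and 291 in Rag2c/c p53-/- lymphomas.

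**Figure D3:**
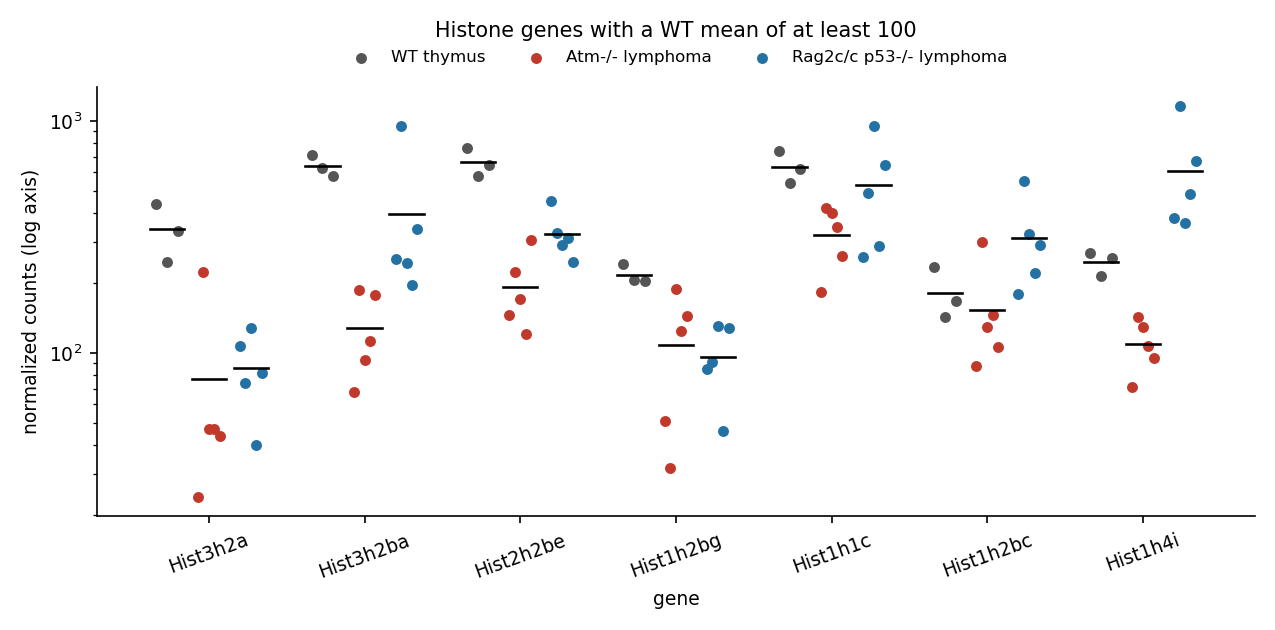
Normalized counts on a log axis (y axis) of the 7 histone genes with a WT mean of at least 100 (x axis), with 1 point per library and bars for group means. Hist3h2a, Hist2h2be and Hist1h2bg have all lymphoma points below the thymuses, and Hist1h4i has Rag2c/c p53-/- points at 361 to 1155 above and Atm-/- points at 71 to 142 below the thymuses at 214 to 269.

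Hist1h4i (ENSMUSG00000060639, chromosome 13 from 22040636 to 22041362) moved in opposite directions in the lymphomas. This H4 gene had 269, 214 and 257 normalized counts in WT, 71, 142, 129, 107 and 95 in Atm-/- lymphomas and 382, 1155, 361, 482 and 670 in Rag2c/c p53-/- lymphomas. None of the 3 groups overlapped. Hist1h4i fell by 1.21 (SE 0.36, limma adjusted p = 0.0154) in Atm-/- lymphomas and rose by 1.17 (SE 0.36, limma adjusted p = 0.0216) in Rag2c/c p53-/- lymphomas, and the direct difference between the lymphoma groups was -2.37 (SE 0.31, limma adjusted p = 0.000329). The direct difference held in all 22 alternatives tried. The fall in Atm-/- was lost without WT replicate 1 or 3, and the rise in Rag2c/c p53-/- without any 1 of the thymuses or without Rag2c/c p53-/- replicate 2, at 0.90. It was the only gene called in opposite directions, since 5 of the 6 members called in both comparisons with WT had the same direction. These are Hist3h2a and Hist2h2be, lower, and Hist1h2af, Hist1h2ak and Hist1h3g, higher.

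The promoter of Hist1h4i is shown because this gene was called in opposite directions (RefSeq, GRCm38.p6, chr13:22041313-22041612, minus strand). Capitals mark TATAAA, and the window holds no CCAAT and no octamer ATGCAAAT on either strand.
Hist1h4i: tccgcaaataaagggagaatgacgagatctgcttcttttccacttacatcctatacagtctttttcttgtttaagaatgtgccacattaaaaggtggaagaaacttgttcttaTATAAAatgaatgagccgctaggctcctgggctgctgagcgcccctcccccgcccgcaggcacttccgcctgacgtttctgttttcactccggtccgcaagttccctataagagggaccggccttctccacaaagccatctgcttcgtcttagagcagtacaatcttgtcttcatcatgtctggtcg
Promoters of 300 bases were found in RefSeq for 60 of the 70 genes. CCAAT, the box bound by NF-Y, was present on either strand in 51 of the 60 (85%) against 41.1% of 27025 genes with a promoter. It was in 100% of the matched H1, H2A, H2B and H3 promoters and in 3 of 12 H4 promoters (25%). TATAAA was in 34 of 60 (56.7%) against 15.7% of all. The octamer ATGCAAAT, a site for POU factors such as OCT1, was in 7 of 16 H2A and 7 of 16 H2B promoters (43.8% each), in none of the H1, H3 or H4 promoters, and in 1.97% of all genes. H2A and H2B genes that stand head to head share much of these windows, so the same motif can be counted for both partners.

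Of the genes called higher in Atm-/- lymphomas, Hist1h2al has no fold, since it was listed at 0 in all WT thymuses. Hist1h2al (ENSMUSG00000091383, chromosome 13 from 51202688 to 51203065) lies outside the main Hist1 cluster. It had 4, 32, 8, 38 and 10 normalized counts in the 5 Atm-/- lymphomas and was listed at 0 in all 3 thymuses and all 5 Rag2c/c p53-/- lymphomas. The call had a limma adjusted p of 0.000436 against WT and 0.000724 against Rag2c/c p53-/- lymphomas. Hist1h2al met the minimum of 10 in 3 libraries only through Atm-/- lymphomas, the group where it is high. These p-values and its place in the counts of calls are therefore not independent of the choice of tested genes. Its largest values were in Atm-/- replicates 2 and 4, and Atm-/- mice are the only ones of the pure 129S6/SvEv strain, so strain and genotype cannot be told apart here.

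Hist1h4m (ENSMUSG00000069306, chromosome 13 from 21811746 to 21812147), an H4 gene, showed the converse. It was listed at 0 in all 5 Atm-/- lymphomas and had 9, 6 and 12 normalized counts in WT and 15, 47, 16, 10 and 26 in Rag2c/c p53-/- lymphomas. It shared 88.5% of its windows of 90 bases with other genes, all but 1 of them H4 genes of the Hist1 cluster. The comparison of the lymphoma groups had a limma adjusted p of 3.43e-05, and that of Atm-/- lymphomas with WT had 0.000258 but no call, because the WT mean was 9. Hist1h4m met the minimum of 10 in 3 libraries only through Rag2c/c p53-/- lymphomas, the group where it is highest. Its p-values and its place in the counts of calls are thus not independent of the choice of tested genes either.

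Hist1h2af, an H2A gene, had 68, 0 and 53 normalized counts in WT, 107, 96, 206, 224 and 212 in Atm-/- lymphomas and 108, 172, 72, 96 and 117 in Rag2c/c p53-/- lymphomas. WT replicate 2 was listed at 0, while each lymphoma was above the other thymuses. That library is shallow, at an estimated 3.2 normalized counts per read, and the reason for its 0 was not tested. The rises of 3.36 (SE 1.03, limma adjusted p = 0.0176) and 2.82 (SE 1.03, limma adjusted p = 0.0453) rested on that 0 for their size. Without that thymus the difference in Rag2c/c p53-/- lymphomas was 0.84 (limma adjusted p = 0.168), and that call was kept in 9 of 22 alternatives, against 22 of 22 in Atm-/- lymphomas. Hist1h2af shared 83.2% of its windows.

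The genes for H1.1 and H1.5 rose in Atm-/- lymphomas, and neither shared a window with another gene. Hist1h1a (H1.1) had 27, 6 and 36 in WT, 65, 37, 87, 139 and 120 in Atm-/- lymphomas and 32, 71, 58, 38 and 61 in Rag2c/c p53-/- lymphomas. Hist1h1b (H1.5) had 24, 19 and 27 in WT, 43, 55, 65, 73 and 68 in Atm-/- lymphomas and 12, 30, 32, 18 and 20 in Rag2c/c p53-/- lymphomas. For both genes every Atm-/- lymphoma was above every thymus, by 1 normalized count in Atm-/- replicate 2 for Hist1h1a. Hist1h1a rose by 2.09 (SE 0.57, limma adjusted p = 0.00949) and Hist1h1b by 1.33 (SE 0.38, limma adjusted p = 0.0124). Neither was called without WT replicate 2, where the differences were 1.35 (limma adjusted p = 0.0612) and 1.20 (limma adjusted p = 0.0526). Hist1h1b was also higher in Atm-/- than in Rag2c/c p53-/- lymphomas, by 1.46 (SE 0.33, limma adjusted p = 0.0127), in all 22 alternatives.

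Hist1h2aj, an H2A member annotated as a pseudogene, had 12, 0 and 7 in WT, 26, 18, 50, 19 and 51 in Atm-/- lymphomas and 14, 14, 11, 19 and 11 in Rag2c/c p53-/- lymphomas. Hist2h3b, an H3 gene, had 12, 6 and 9 in WT, 21, 53, 36, 132 and 36 in Atm-/- lymphomas and 30, 128, 20, 13 and 19 in Rag2c/c p53-/- lymphomas. Hist1h4n, an H4 gene, had 10, 3 and 11 in WT, 30, 18, 57, 62 and 32 in Atm-/- lymphomas and 14, 47, 19, 7 and 24 in Rag2c/c p53-/- lymphomas. All 3 were above WT in every Atm-/- lymphoma, with log2 rises of 2.71, 2.26 and 2.20 (limma adjusted p = 0.00753, 0.0186 and 0.0106). The size for Hist1h2aj rested on the 0 of WT replicate 2, a shallow library, without which it was 1.59, and the call was kept in all 21 alternatives that gave a value. Those of Hist2h3b and Hist1h4n were lost without WT replicate 2 (limma adjusted p = 0.0726 and 0.0646), and that of Hist2h3b also without WT replicate 3 (limma adjusted p = 0.0558). The 3 genes shared 92.0%, 100% and 81.2% of their windows with other genes, and the remaining higher calls in Atm-/- lymphomas had rises of 1.33 to 1.84. Of these, Hist1h3g and Hist1h2bf were kept in 12 of 22 and 11 of 21 alternatives, and Hist1h2ak and Hist1h2ap in 19 of 22 and 19 of 21, Hist1h2ak being lost without WT replicate 1 or 2 and Hist1h2ap without WT replicate 1 or 3.

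Among genes called higher in Rag2c/c p53-/- lymphomas, Hist1h4b had 34, 29 and 33 in WT against 143, 304, 48, 78 and 120, and Hist1h3g, an H3 gene, had 20, 23 and 24 against 68, 206, 47, 49 and 88. Neither overlapped WT, and replicate 2 was highest for both. The rises were 1.81 (SE 0.67, limma adjusted p = 0.0478) and 1.76 (SE 0.51, limma adjusted p = 0.0157). Hist1h2ak, Hist1h2bk and Hist1h2ae rose by 1.55, 1.55 and 1.47 (limma adjusted p = 0.0445, 0.03 and 0.0453). Of 22 alternatives, the call of Hist1h3g was kept in 20, that of Hist1h2bk in 16, those of Hist1h2ak and Hist1h2ae in 12 each and that of Hist1h4b in 10. Hist1h2bk was at 45, 55 and 53 in WT and 171, 324, 103, 88 and 153 in Rag2c/c p53-/- lymphomas, and at 88, 73, 118, 355 and 87 in Atm-/- lymphomas, where the difference of 1.21 (limma adjusted p = 0.0701) did not pass. Hist1h2ak was at 35, 19 and 41 in WT, 55, 69, 154, 228 and 93 in Atm-/- lymphomas and 95, 236, 70, 41 and 93 in Rag2c/c p53-/- lymphomas. For Hist1h2bk no lymphoma overlapped WT, and for Hist1h2ak Rag2c/c p53-/- replicate 4 equalled the highest thymus.

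Hist1h4d, the highest H4 gene after Hist1h4i in normalized counts, shared 0.858% of its windows. It had 66, 42 and 73 in WT, 113, 114, 270, 271 and 161 in Atm-/- lymphomas and 128, 436, 105, 50 and 159 in Rag2c/c p53-/- lymphomas. Only Rag2c/c p53-/- replicate 4 fell within the WT range. The rise of 1.54 (SE 0.56, limma adjusted p = 0.0394) in Atm-/- lymphomas passed, in 15 of 22 alternatives too, and the difference of 1.20 (SE 0.56, limma adjusted p = 0.108) in Rag2c/c p53-/- lymphomas did not.

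Between the lymphoma groups, 7 of 60 members were called, 11.7% against 7.84% of all tested genes. In Atm-/- lymphomas 3 were higher (5% against 3.51%) and 4 were lower (6.67% against 4.33%), with a median of 0.09 over the members and 0.02 over all genes. The higher genes were Hist1h2al, Hist2h2bb and Hist1h1b, and the lower ones Hist1h4m, Hist1h4i, Hist1h2bm and Hist3h2ba. Without Atm-/- replicate 2, 4 or 5 the higher calls came to 1 in each case, and without Rag2c/c p53-/- replicate 2 to 5. Again the share of all genes called in these fits is not given, so the changes are not shown to be particular to the histone genes.

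Hist1h2bm, an H2B gene, had 39, 39 and 33 in WT, 10, 7, 12, 23 and 5 in Atm-/- lymphomas and 43, 128, 49, 22 and 78 in Rag2c/c p53-/- lymphomas. The Atm-/- values lay below WT, and in the lymphomas 1 value of each group crossed, at 23 and 22. Hist1h2bm fell by 1.78 (SE 0.56, limma adjusted p = 0.02) against WT, a call lost without any 1 thymus, and differed by -2.32 (SE 0.48, limma adjusted p = 0.00801) from Rag2c/c p53-/- lymphomas. Hist2h2bb, another H2B gene, had 43, 16 and 43 in WT, 50, 132, 123, 164 and 76 in Atm-/- lymphomas and 19, 91, 24, 12 and 41 in Rag2c/c p53-/- lymphomas. It was higher in Atm-/- lymphomas by 1.66 (SE 0.61, limma adjusted p = 0.0408) against WT and by 1.75 (SE 0.53, limma adjusted p = 0.0486) against Rag2c/c p53-/- lymphomas, where replicate 2 overlapped. These calls were kept in 15 and 8 of 22 alternatives. Hist3h2ba, given above, differed by -1.47 (SE 0.40, limma adjusted p = 0.0312), a call lost without Atm-/- replicate 1, 3 or 4 or Rag2c/c p53-/- replicate 5.

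**Figure D4:**
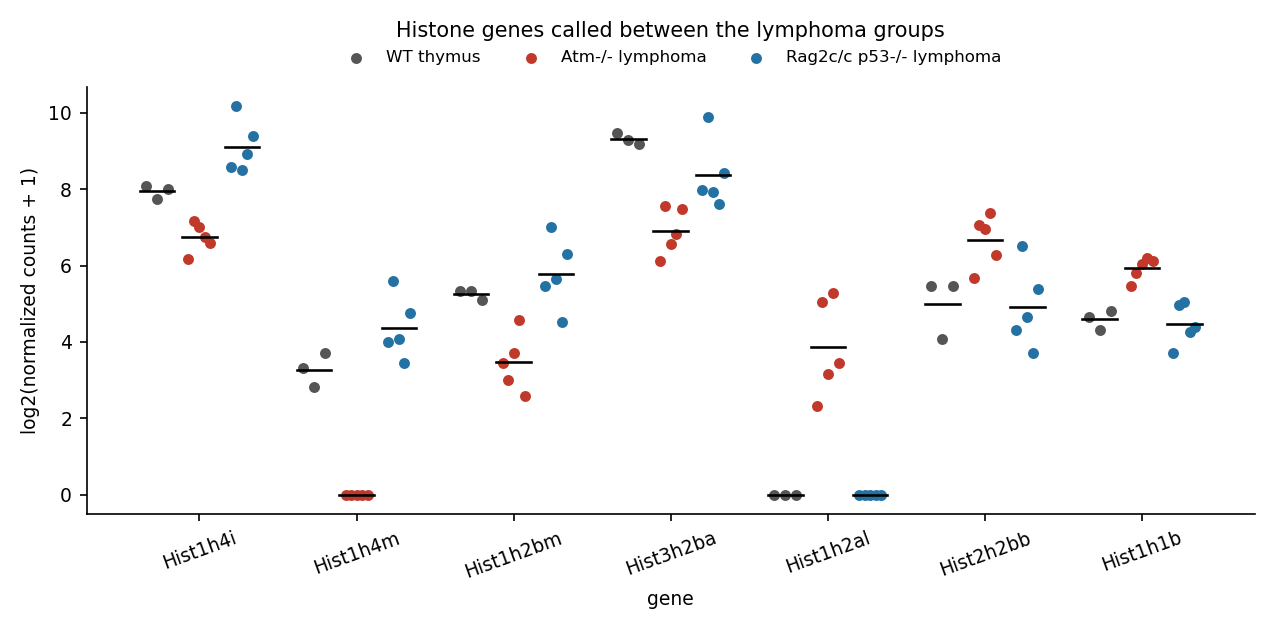
Levels as log2(normalized counts + 1) (y axis) of the 7 histone genes called between the lymphoma groups (x axis), with 1 point per library and bars for group means. Hist1h4m sits at 0 in all 5 Atm-/- lymphomas, and Hist1h2al sits at 0 in all 8 libraries of the other groups.

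Among the members not tested, Hist3h2bb-ps, a pseudogene, reached 10 in 2 libraries only, at 37 in Rag2c/c p53-/- replicate 2 and 13 in WT replicate 1. Hist2h2ab reached 10 in WT replicate 2 (10) and Atm-/- replicate 4 (13). Hist1h1t, the testis linker histone gene, was at 0 to 3 in every library. The other untested members did not exceed 7 normalized counts.

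Many H2A and H2B genes stand head to head and share the DNA between their starts. In these clusters 14 pairs started 173 to 306 bases apart, and in 10 pairs both genes were tested. In 4 pairs the mean log2 ratio of the partners was over 2 above its WT mean in either lymphoma group, and these are shown with their shared promoter (RefSeq, GRCm38.p6). They were chosen for this ratio after it was seen. No shift of a ratio passed after adjustment, which so few libraries could hardly allow, as given below. Capitals mark the CCAAT box, the TATAAA box and the octamer ATGCAAAT on either strand. The window of Hist1h2bm (chr13:21721794-21722093, plus strand) reaches the start of Hist1h2aj, that of Hist1h2ak (chr13:21753863-21754162, minus strand) the start of Hist1h2bn, that of Hist2h2ac (chr3:96220831-96221130, minus strand) the start of Hist2h2be and that of Hist1h2ae (chr13:23571171-23571470, minus strand) the start of Hist1h2bg.
Hist1h2bm: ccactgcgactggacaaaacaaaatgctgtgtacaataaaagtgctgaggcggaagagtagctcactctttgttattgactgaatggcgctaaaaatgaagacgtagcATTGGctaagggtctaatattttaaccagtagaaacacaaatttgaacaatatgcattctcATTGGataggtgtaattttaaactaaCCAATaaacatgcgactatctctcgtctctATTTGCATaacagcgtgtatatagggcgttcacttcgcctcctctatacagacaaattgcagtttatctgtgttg
Hist1h2ak: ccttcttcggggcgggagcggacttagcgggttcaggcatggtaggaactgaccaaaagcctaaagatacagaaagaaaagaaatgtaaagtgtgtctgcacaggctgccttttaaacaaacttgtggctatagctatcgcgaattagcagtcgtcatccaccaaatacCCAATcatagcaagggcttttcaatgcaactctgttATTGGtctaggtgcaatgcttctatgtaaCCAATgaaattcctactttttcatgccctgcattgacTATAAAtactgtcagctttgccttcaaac
Hist2h2ac: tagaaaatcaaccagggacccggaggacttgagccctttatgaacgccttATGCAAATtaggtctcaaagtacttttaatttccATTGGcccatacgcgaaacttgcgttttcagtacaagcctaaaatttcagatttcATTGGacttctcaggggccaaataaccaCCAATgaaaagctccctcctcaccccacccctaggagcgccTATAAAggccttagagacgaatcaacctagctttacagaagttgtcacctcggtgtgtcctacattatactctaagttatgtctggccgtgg
Hist1h2ae: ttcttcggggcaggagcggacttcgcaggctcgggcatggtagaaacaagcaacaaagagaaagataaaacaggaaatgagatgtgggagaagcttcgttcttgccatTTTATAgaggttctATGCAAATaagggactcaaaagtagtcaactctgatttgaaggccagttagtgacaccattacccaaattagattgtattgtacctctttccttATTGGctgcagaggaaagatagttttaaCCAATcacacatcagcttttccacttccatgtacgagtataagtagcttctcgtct
The windows of Hist2h2ac and Hist1h2ae hold all 3 motifs, that of Hist1h2bm holds no TATAAA and that of Hist1h2ak no octamer. Hist1h2aj and Hist1h2bm, whose values are given above, were the only partners called in opposite directions in the same comparison, Hist1h2aj higher and Hist1h2bm lower in Atm-/- lymphomas. The log2 ratio of Hist1h2aj to Hist1h2bm was -3.01 ± 2.02 (SD, n = 3) in WT, 1.47 ± 1.23 (SD, n = 5) in Atm-/- lymphomas and -1.93 ± 1.13 (SD, n = 5) in Rag2c/c p53-/- lymphomas, the wide spread in WT coming with the 0 of Hist1h2aj in replicate 2. Hist1h2bn, an H2B gene, had 73, 23 and 69 normalized counts in WT, 13, 2, 62, 41 and 26 in Atm-/- lymphomas and 65, 68, 51, 32 and 59 in Rag2c/c p53-/- lymphomas, and was not called. The ratio of Hist1h2ak to Hist1h2bn was -0.68 ± 0.39 (SD, n = 3), 2.42 ± 1.26 (SD, n = 5) and 0.75 ± 0.58 (SD, n = 5) in the same order, above WT in each of the 10 lymphomas.

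Hist2h2ac, an H2A gene, had 21, 6 and 18 normalized counts in WT, 14, 5, 31, 58 and 22 in Atm-/- lymphomas and 26, 44, 26, 12 and 41 in Rag2c/c p53-/- lymphomas, and was not called in any comparison. The log2 ratio of Hist2h2ac to Hist2h2be was -5.53 ± 0.73 (SD, n = 3) in WT, -3.14 ± 1.55 (SD, n = 5) in Atm-/- lymphomas and -3.51 ± 0.84 (SD, n = 5) in Rag2c/c p53-/- lymphomas. In Hist1h2ae and Hist1h2bg, the same ratio was -2.59 ± 0.05 (SD, n = 3), -0.54 ± 0.48 (SD, n = 5) and 0.14 ± 0.94 (SD, n = 5). Hist1h2ae had 40, 32 and 34 in WT and 100, 213, 52, 71 and 121 in Rag2c/c p53-/- lymphomas.

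The ratio of the partners was compared between groups in 30 two-sided exact permutation tests, over 10 pairs and 3 comparisons. Of these, 11 had an unadjusted p under 0.05 and none passed after Benjamini-Hochberg adjustment, the lowest adjusted exact p being 0.107. The smallest p that 5 against 3 libraries allow is 0.0357, and 5 against 5 allow 0.00794. A test at 0.0357 could pass adjustment only if most of the 30 tests were as low. The lack of a pass therefore does not show that the ratios were unchanged. The largest shift was that of Hist1h2aj to Hist1h2bm, 4.48 above WT in Atm-/- lymphomas (exact p = 0.0357, adjusted 0.107). That of Hist1h2ak to Hist1h2bn lay 3.10 above WT in the Atm-/- group and 1.43 above it in the Rag2c/c p53-/- group (exact p = 0.0357 in each, adjusted 0.107). The ratio of Hist2h2ac to Hist2h2be was 2.39 above WT in Atm-/- lymphomas (exact p = 0.107, adjusted 0.201) and 2.03 in Rag2c/c p53-/- lymphomas (exact p = 0.0357, adjusted 0.107). The ratio of Hist1h2ae to Hist1h2bg was above WT in 10 of 10 lymphomas, by 2.04 and 2.72 (exact p = 0.0357 in each comparison, adjusted 0.107). For Hist1h2bl and Hist1h2ai it was higher in all 5 Atm-/- than in all 5 Rag2c/c p53-/- lymphomas by 1.51 (exact p = 0.00794, adjusted 0.107). Hist1h2ag and Hist1h2bj, 270 bases apart, had mean ratios of 0.14, 0.34 and 0.41 in WT, Atm-/- and Rag2c/c p53-/- libraries. Hist1h2ag was at 65, 88 and 58, then 40, 43, 36, 156 and 68, then 152, 415, 72, 106 and 140, and Hist1h2bj at 68, 58 and 63, then 43, 9, 43, 180 and 62, then 112, 226, 92, 43 and 159, so that Atm-/- replicate 4 and Rag2c/c p53-/- replicate 2 were highest in both.

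**Figure D5:**
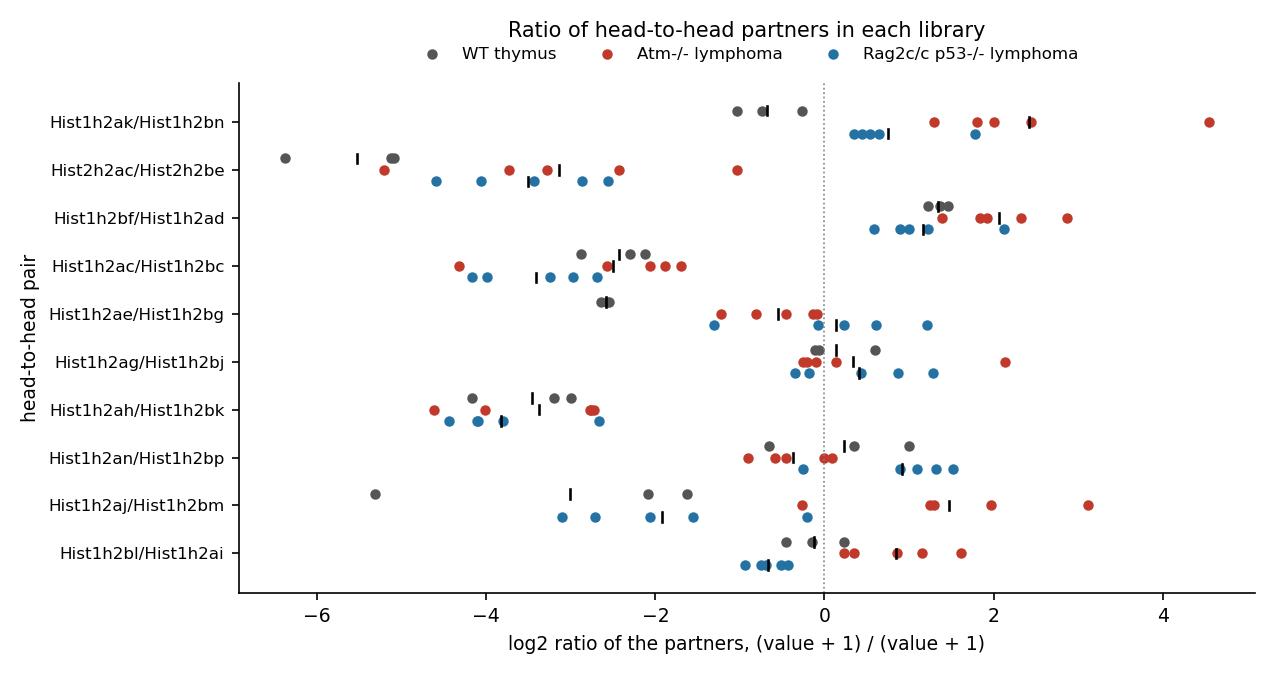
Log2 ratio of head-to-head partners, first gene over second, with 1 added to each value (x axis), for the 10 pairs with both genes tested (y axis), with 1 point per library and bars for group means. For Hist1h2ae/Hist1h2bg the thymuses lie at -2.64 to -2.55 and the lymphomas at -1.31 to 1.22.

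The libraries differed in how far their histone genes lay from WT. The median over the 60 members of the difference from the WT mean was 0.33, 0.00, 1.37, 1.69 and 0.82 in Atm-/- lymphomas 1 to 5, and 0.56, 1.77, 0.53, 0.06 and 1.0 in Rag2c/c p53-/- lymphomas 1 to 5. Atm-/- replicate 4 and Rag2c/c p53-/- replicate 2 were farthest from WT in their groups. In these libraries 48 and 54 of the 60 members lay above the WT mean, against 30 in both Atm-/- replicate 2 and Rag2c/c p53-/- replicate 4. The thymuses themselves were at 0.16, -0.29 and 0.10.

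RNAs that carry no poly(A) tail were measured beside them. Of 18 such RNAs listed, 17 were in the table and 6 were tested. None of the 6 was called in any comparison, where 29.5%, 23.6% and 7.84% of all tested genes were, and 6 genes are few. The summed level of the listed RNAs was 236 to 416 in WT, 274 to 1216 in Atm-/- lymphomas and 190 to 546 in Rag2c/c p53-/- lymphomas. The highest sum was in Atm-/- replicate 3, where Rn7sk, the RNA of the 7SK particle, was at 509 against 66 to 119 in the other Atm-/- lymphomas. In Atm-/- replicate 4, the sum was 415. The part of unpolyadenylated RNA in the histone values was not tested.

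Of 17 S phase genes tested, 3 were higher in Atm-/- lymphomas (Tyms, E2f1 and Gins2; 17.6% against 12.6% of all genes) and none lower (17% of all genes), with a list median of 0.78. In Rag2c/c p53-/- lymphomas 3 were higher (Cdc6, E2f1 and Gins2), 17.6% against 9.77%, and none lower (13.9% of all genes), with a median of 0.71. None was called between the lymphoma groups, where 7.84% of all genes were. Tyms, which makes thymidylate, rose by 1.16 in Atm-/-, and Cdc6, which loads the replicative helicase, by 1.29 in Rag2c/c p53-/- lymphomas. By library the median difference of the S phase genes from WT was 0.80, 0.22, 0.83, 0.93 and 0.98 in Atm-/- lymphomas and 0.45, 0.95, 0.49, 1.0 and 0.71 in Rag2c/c p53-/- lymphomas. Rag2c/c p53-/- replicate 4 had the highest median for S phase genes and the lowest for the clustered histone genes of its group.

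Of 26 genes for the transcription and 3′ processing of histone mRNAs, all tested, 1 was higher (3.85% against 12.6% of all genes) and 2 lower (7.69% against 17%) in Atm-/- lymphomas, 1 was higher and 1 lower (3.85% each, against 9.77% and 13.9%) in Rag2c/c p53-/- lymphomas, and none was called between the lymphomas, where 7.84% of all genes were. Their medians were -0.01, 0.23 and -0.23. Npat, the coactivator of histone genes that cyclin E and CDK2 phosphorylate, was at 1816, 1712 and 2026 in WT and did not pass in either group (-0.26 and -0.21, limma adjusted p = 0.521 and 0.638). Hinfp, the factor that binds H4 promoters, was at 642, 607 and 702 in WT and 418, 260, 296, 308 and 344 in Atm-/- lymphomas, below WT in each, and fell by 1.01 (SE 0.24, limma adjusted p = 0.00451), near the fold threshold, under which it came without WT replicate 3 or Atm-/- replicate 2, 3 or 4. In Rag2c/c p53-/- lymphomas Hinfp was at 639, 453, 490, 281 and 455, with a difference of -0.53 (limma adjusted p = 0.0989).

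Slbp, which binds the stem-loop, was at 2187, 2768 and 2301 in WT, 2494 to 3822 in Atm-/- lymphomas and 3074 to 5201 in Rag2c/c p53-/- lymphomas, with differences of 0.46 and 0.71 under the fold threshold. Lsm10 and Lsm11, subunits of the U7 particle that guides cleavage, differed by 0.31 and 0.11 in Atm-/- lymphomas and 0.58 and 0.12 in Rag2c/c p53-/- lymphomas. Casp8ap2 differed by -0.88 and -0.05, Eri1, a nuclease that trims the stem-loop end, by 0.55 and 0.30, and Zfp473, a zinc finger protein of 3′ processing, by -0.37 and -0.14. None of these 6 genes was called. The called genes besides Hinfp were Ccne1 (cyclin E1) in Atm-/- lymphomas, which rose by 1.22, Ccne2 (cyclin E2) in Rag2c/c p53-/- lymphomas, which rose by 1.05, and Zcchc6, a uridylyl transferase, which fell by 1.43 and 1.47 in the respective groups.

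Histone chaperones carry new histones to DNA. Of 20 tested, 3 were higher (15% against 12.6% of all genes) and 1 lower (5% against 17%) in Atm-/- lymphomas, and 2 were higher (10% against 9.77%) and 1 lower (5% against 13.9%) in Rag2c/c p53-/- lymphomas, with medians of 0.50 and 0.49. Chaf1b, a subunit of the assembly factor CAF-1, was at 1145, 1335 and 1126 in WT, 4354, 5675, 3597, 3140 and 4004 in Atm-/- lymphomas and 1821, 2688, 2560, 3329 and 2347 in Rag2c/c p53-/- lymphomas. Every lymphoma was above every thymus, and Chaf1b rose by 1.76 (limma adjusted p = 3.47e-05) and 1.06 (limma adjusted p = 0.00161). Chaf1a, its partner, rose by 1.03 and 1.02, calls kept in 19 of 22 alternatives each. Supt16, a subunit of FACT, rose by 2.11 in Atm-/- lymphomas. It was the only chaperone called between the lymphomas (5% against 7.84% of all genes), higher in Atm-/- by 1.20. Hjurp, the chaperone of CENP-A, fell by 1.22 in Atm-/-, and Atrx, which deposits H3.3, fell by 1.0 in Rag2c/c p53-/- lymphomas.

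Of 16 variant histone genes outside the clusters, 11 were tested. In Atm-/- lymphomas 2 were higher (18.2% against 12.6% of all genes) and 1 lower (9.09% against 17%), with a median of 0.40. Against WT, 1 was higher and 1 lower in Rag2c/c p53-/- lymphomas (9.09% each, against 9.77% and 13.9%), with a median of 0.59, and 1 was called between the lymphomas (9.09% against 7.84%). H2afx, which codes for the H2A.X that ATM phosphorylates at breaks, was at 3201, 5997 and 3103 in WT, 5174, 11649, 8068, 9260 and 6850 in Atm-/- lymphomas and 5748, 12520, 5579, 7794 and 6509 in Rag2c/c p53-/- lymphomas. WT replicate 2 overlapped with both groups. H2afx rose by 1.02 (SE 0.31, limma adjusted p = 0.018) in Atm-/- lymphomas, a call lost without WT replicate 1 or 3 or Atm-/- replicate 2 or 4. The difference of 0.90 (SE 0.31, limma adjusted p = 0.0374) in Rag2c/c p53-/- lymphomas was under the fold threshold.

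H2afz, H2afv, H3f3a, H3f3b and Cenpa were not called in any comparison, with differences from WT of -0.03 to 0.70 in Atm-/- lymphomas and 0.26 to 0.71 in Rag2c/c p53-/- lymphomas. H2afj rose by 1.24 (limma adjusted p = 0.0117) in Atm-/- lymphomas. H2afy2, which codes for macroH2A2, was low, at 14, 19 and 11 in WT and at most 8 in a lymphoma, and fell by 2.47 and 2.70. It met the minimum of 10 in 3 libraries only through the thymuses, so these falls are not independent of that minimum. H1f0, the gene of the linker histone H1.0, known from resting and differentiated cells, was at 1598, 1514 and 1425 in WT, 7389, 1203, 2441, 3063 and 6485 in Atm-/- lymphomas and 10796, 20369, 4461, 3551 and 5261 in Rag2c/c p53-/- lymphomas. Every Rag2c/c p53-/- lymphoma was above WT, with a rise of 2.24 (SE 0.60, limma adjusted p = 0.0106), and 4 of 5 Atm-/- lymphomas were, with a difference of 1.15 (SE 0.60, limma adjusted p = 0.131) that did not pass. H1fx, another linker histone gene, was at 161, 331 and 170 in WT, 105, 489, 208, 24 and 81 in Atm-/- lymphomas and 4344, 5441, 614, 1178 and 174 in Rag2c/c p53-/- lymphomas. It was lower in Atm-/- than in Rag2c/c p53-/- lymphomas, with a difference of -3.41 (SE 0.91, limma adjusted p = 0.0285), a call kept in 15 of 22 alternatives and lost without Atm-/- replicate 1, 4 or 5 or Rag2c/c p53-/- replicate 1 or 2, while Rag2c/c p53-/- replicate 5 lay within the WT range.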

How the data were processed

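Poly(A)-selected mRNA libraries (TruSeq Stranded) came from single-cell suspensions of 3 WT thymuses and of 10 thymic lymphomas, 5 mice for each lymphoma genotype. According to the study's methods, taken to hold for these libraries, reads were demultiplexed with bcl2fastq 1.8.3, aligned to GRCm38 with STAR 2.4.0g1 and the Ensembl annotation, freed of duplicates with Picard, and counted per gene with HTSeq from uniquely mapped reads. Versions are from the submitters' processing notes. The deposited values are the authors' counts divided by DESeq2 1.6.3 size factors and rounded to whole numbers, so they are a normalized score and not raw counts. Rounding hides the steps that single reads leave, so no count test was run. Removal of duplicates lowers high values most in deep libraries, and unique mapping lowers near copies. The same table holds group means, fold changes, p-values and dispersions of the authors' own comparisons, which were not used.

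Here, log2(value + 1) was fitted for the 15872 genes that reached 10 in 3 or more of the 13 libraries, with limma 3.58.1 (R 4.3.3, trend and robust moderation) with the 3 groups together. Calls needed a Benjamini-Hochberg adjusted p under 0.05, a log2 difference of 1 or more and a group mean of 10 or more. The p-values measure the spread between these mice. The procedure was tested on simulated data. Ratios of head-to-head partners were compared with exact permutation tests. Levels per kb use the annotated span of genes with 1 exon and the exonic length of the others. Depth was estimated by a fit to how often each low value occurs, with an assumed range for the number of genes with 1 read. By this fit, 1 read was worth 0.5 to 3.38 normalized counts. Where 1 read is worth under 1 count, its steps cannot be seen in whole numbers, so these depths are rough. Alternatives were other scalings, filters, pseudocounts, thresholds and groups in the fit, and leaving out each library.

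The histone genes and all gene lists were chosen with earlier results of these data known. The text names the 8 members with the highest means, in each comparison up to 6 called members from either end of the order of differences, members that reach 10 in 1 or 2 libraries, members shown by sequence, and fixed genes of the other lists with up to 3 called ones in each. Hist1h2ai, Hist1h2ap, Hist1h2bf, Hist1h2bl, Hist1h2bj, Hist1h2bn, Hist1h1t, Epcam, Psmb11 and Rn7sk were named after their values were seen, as was the level of 100 that set 7 genes apart.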

Additional observations from a re-analysis of the deposited data

Results flagged for a closer look

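In groups of 5 lymphomas, 12 of 62 sets of values held 1 library set apart from the others by Dixon's criterion. The sets were those of the named histone genes and of summed levels. The criterion sets apart about 1 in 20 sets of independent values not chosen beforehand. The named genes were chosen in part from these same values, so that rate is no measure here. Hist3h2bb-ps was named because it reached 10 in 2 libraries only. Of the 12, 7 came from Rag2c/c p53-/- replicate 2, the shallowest library. There Hist3h2ba was at 946 against 196 to 342 in the other 4 lymphomas of the group, Hist1h4d at 436 against 50 to 159, Hist1h2ag at 415 against 72 to 152, and Hist1h2ak at 236 against 41 to 95. In the same library Hist1h3g was at 206 against 47 to 88, Hist2h3b at 128 against 13 to 30, and the pseudogene Hist3h2bb-ps at 37 against 4 to 9.

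Atm-/- replicate 4 was set apart for 3 genes, with Hist1h2bk at 355 against 73 to 118, Hist1h2ag at 156 against 36 to 68 and Hist2h3b at 132 against 21 to 53. Atm-/- replicate 2 was set apart for Hist1h2bc, at 299 against 88 to 145, and for Hist3h2a, at 224 against 24 to 47. These genes share sequence and clusters, so the counts are not independent. Their relation to depth was not tested.

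The difference from WT thymus was itself different between the lymphoma groups for 7 genes, by the direct limma comparison of Atm-/- with Rag2c/c p53-/- lymphomas. The log2 differences were 3.86 for Hist1h2al, 1.75 for Hist2h2bb and 1.46 for Hist1h1b. They were -4.38 for Hist1h4m, -2.37 for Hist1h4i, -2.32 for Hist1h2bm and -1.47 for Hist3h2ba. The sizes for Hist1h2al and Hist1h4m depend on the pseudocount, since 1 group was listed at 0 in each. Each of these genes met the minimum of 10 in 3 libraries only through the lymphoma group where it is high.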

How the results depend on the processing

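No call of a histone gene, nor of a gene of the variant histone, 3′ processing, chaperone and S phase lists, changed sign in the alternatives run for it. Of 18 histone calls in Atm-/- lymphomas against WT, 6 were kept in every such alternative, of 9 in Rag2c/c p53-/- lymphomas 0, and of 7 between the lymphomas 5. For the other lists these were 8 of 13, 4 of 10 and 1 of 2, from alternatives run after seeing the data. Leaving out 1 library at a time moved the calls of Atm-/- lymphomas against WT from 9 to 26 (higher 4 to 20, lower 3 to 6), those of Rag2c/c p53-/- lymphomas against WT from 2 to 12 (higher 1 to 9, lower 0 to 3), and those between the lymphomas from 5 to 9 (higher 1 to 5, lower 3 to 5). The medians over the members moved from 0.68 to 1.08, from 0.50 to 0.97 and from -0.07 to 0.32. With a minimum of 50, 8 members were higher in Atm-/- lymphomas than in WT (13 in the report), and 3 differed between the lymphomas, 1 higher and 2 lower (7 in the report, 3 higher and 4 lower). With no filter, 5 differed in Rag2c/c p53-/- lymphomas, 3 of them higher (9 and 7 in the report). For the calls that were lost or gained in this way, the cause was not tested, beyond the fewer samples or genes that enter each fit. The share of all genes called in each such fit is not set beside these counts. Alternatives chosen after seeing the data were to leave out members sharing over 50% of their windows, which left 7 higher in Atm-/- and 4 higher in Rag2c/c p53-/- lymphomas, and to leave out both shallowest libraries, which left 3 called and 0 higher in Rag2c/c p53-/- lymphomas and gave 5 higher in Atm-/- than in Rag2c/c p53-/- lymphomas. No paired analysis was possible because replicate numbers mark different mice in each group and none is shared between groups. Low values limit precision: 19 members in WT thymus had a mean under 10.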
